A study of Rattus norvegicus with 9 samples.

Results

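The glucocorticoid receptor and a set of genes that act on or answer to glucocorticoids were followed in primary rat osteoblasts. The set was chosen by name: the receptor gene Nr3c1, the steroid-activating enzyme gene Hsd11b1, and the response genes Fkbp5, Tsc22d3, Per1, Klf9, Zbtb16, Sgk1 and Dusp1. Of these 9 genes, 8 have a row among the 19085 genes of the table, and Dusp1 is not analysed here. All 8 passed the filter on low counts that left 13256 genes for testing, Zbtb16 only through libraries outside the thrombin group.

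RNA was sequenced from 9 libraries of osteoblasts taken from the skull vault (calvaria) of newborn male Sprague-Dawley rats, 24 hours old (the tissue entry of the sample labels reads knee). Every group, the control included, was kept for 7 days in induction medium with 10% serum, 50 µg/mL ascorbic acid, 10 mM β-glycerophosphate and 1e-07 M dexamethasone, a synthetic glucocorticoid. The 3 groups were a control, cells given thrombin at 20 U/mL, and cells given the same thrombin with PD0325901 (the group PD03), an inhibitor of the kinase MEK, at 0.1 µM (1 protocol of the labels gives the unit as mM). Each group had 3 libraries, described in the study as independent samples. Since dexamethasone was in the medium of every group, the values give the state of these genes with the agonist present, and no group without it was compared. The paper describes regular medium changes, and the time from the last change to harvest is not given. Whether the cells of a library came from 1 or several animals is not stated.

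Glucocorticoids cross the cell membrane and bind the glucocorticoid receptor, which waits in the cytoplasm in a complex with Hsp90 and its co-chaperones. The bound receptor moves to the nucleus, where it binds response elements and raises transcription of some genes, and it lowers that of others, many of them inflammatory, partly by acting on AP-1 and NF-κB. In osteoblasts, glucocorticoids are used in culture to promote differentiation, while long exposure in the body causes bone loss. Most response genes also answer to other signals, among them growth factors, stress and the ERK kinases, so their mRNA is not a direct reading of receptor activity.

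Total counts lay between 15447832 and 19841468 per library. In each group replicate 1 stood apart from the other 2 libraries: the chi-square per degree of freedom was 3.06 to 4.03 for pairs with replicate 1 and 1.82 to 2.15 for pairs of replicates 2 and 3. Without the 3 replicate 1 libraries, an alternative chosen after seeing the data, the same numbers of members were called as with them. The osteoblast gene Runx2 averaged 42.8 ± 2.4 CPM (counts scaled to library size; SD, n = 3) in the control and the collagen gene Col1a1 took 4.62% to 5.05% of control counts, whereas the late osteoblast markers Bglap, Ibsp and Dmp1 averaged between 0 and 0.155 CPM per group. Of the 9 osteoblast markers 6 were tested, and they went in different directions: from control to thrombin to PD03, Alpl averaged 1.67, 0.345 and 3.11 CPM (called lower, then higher), Spp1 63.7, 185 and 53.1 (called higher, then lower) and Runx2 42.8, 51.1 and 32.2 (called lower in PD03 than in thrombin), while Sp7 (4.25, 6.20 and 4.95) and Phex (0.630, 0.548 and 0.712) were not called. Alpl had 6 counts in every thrombin library and passed the filter on low counts only through the other groups, where it was higher. Col1a1 took 6.78% to 6.96% of counts in the PD03 libraries and was called higher there than in both other groups. Its log2 fold change against control, 0.60, lay just past the threshold of 0.58. With library totals alone, 1 instead of 2 osteoblast markers was called higher in PD03 than in control. Scaling by library totals alone also moved the median over all genes on the log2 scale from -0.0040 to -0.12 for PD03 against control and from 0.011 to -0.088 for PD03 against thrombin. The split of called genes also moved, from 1274 higher and 836 lower to 1022 higher and 1176 lower for PD03 against thrombin, and from 649 and 540 to 470 and 907 for PD03 against control. All changes below are relative to TMM scaling, a scaling that sets the bulk of genes to no change. As a check of the inhibitor, 14 of 18 genes known to be induced by ERK were called lower in PD03 than in thrombin, beside 6.31% of all genes, and 0 were called higher, beside 9.61%. The largest fall was that of Egr1, with a log2 fold change of -3.70 (adjusted p = 1.67e-27). With an adjusted p under 0.05 and no fold threshold, 17 were lower and 1, Spry1, higher (0.42), beside 49.8% of all genes in either direction.

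Promoter sequences are shown for the 3 members in which a searched motif was found near an annotated start, to let the reader see what lies there. RefSeq (build GRCr8) held 11 promoter entries, each from 250 bases before to 50 bases after a start, for 6 of the measured members: Nr3c1, Fkbp5, Tsc22d3, Per1, Klf9 and Sgk1. Hsd11b1 and Zbtb16 had no entry. Both strands were searched. Capitals mark TGACG, the core of the cAMP response element, in Tsc22d3 and Klf9, and the AP-1 site TGAGTCA in Sgk1.
Tsc22d3, chrX:109009985-109010284, minus strand: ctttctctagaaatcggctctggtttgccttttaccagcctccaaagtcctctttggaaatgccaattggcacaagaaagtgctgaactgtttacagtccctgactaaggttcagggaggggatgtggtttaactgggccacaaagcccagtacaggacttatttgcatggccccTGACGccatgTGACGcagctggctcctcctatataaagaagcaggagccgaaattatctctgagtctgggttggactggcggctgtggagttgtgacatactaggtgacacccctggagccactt
Klf9, chr1:230126396-230126695, plus strand: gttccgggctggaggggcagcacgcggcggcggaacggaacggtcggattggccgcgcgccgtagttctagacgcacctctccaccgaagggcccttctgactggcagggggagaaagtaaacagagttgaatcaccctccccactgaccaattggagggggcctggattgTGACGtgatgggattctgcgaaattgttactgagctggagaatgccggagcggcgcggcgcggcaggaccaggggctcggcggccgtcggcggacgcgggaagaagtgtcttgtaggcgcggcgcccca
Sgk1, chr1:24805521-24805820, minus strand: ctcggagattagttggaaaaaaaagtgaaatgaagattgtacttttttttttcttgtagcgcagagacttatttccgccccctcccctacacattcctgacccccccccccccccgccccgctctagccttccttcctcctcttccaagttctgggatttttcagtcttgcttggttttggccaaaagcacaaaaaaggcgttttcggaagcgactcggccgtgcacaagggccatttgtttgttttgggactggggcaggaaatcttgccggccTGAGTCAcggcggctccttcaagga
The first bases of the TGACG matches stood 75 and 65 bases before the Tsc22d3 start and 79 bases before the Klf9 start, and the AP-1 match began 25 bases after the Sgk1 start. TGACG was found in 21.2% of all 33469 promoters of this length and TGAGTCA in 4.63%. The palindromic glucocorticoid response element, searched as the arms AGAACA and TGTTCT placed 3 bases apart, occurred in 0 of the 11 entries and in 0.0149% of all promoters. The arm AGAACA alone, on either strand, occurred in 0 of 11 and in 20.7% of all promoters, the full cAMP response element TGACGTCA in 0 and 1.83%, and the E box CACGTG in 0 and 6.42%. These counts say only that the letters were not in these windows.

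The members went in both directions. A gene was called changed where its log2 fold change was beyond 0.58 in size and its adjusted p below 0.05, in edgeR's quasi-likelihood test with Benjamini-Hochberg adjustment over all tested genes. Thrombin against control called 0 of 8 members higher, where 2.62% of all genes were, and 2 of 8 lower (Hsd11b1 and Zbtb16), where 5.44% were. PD03 against thrombin called 2 of 8 higher (Tsc22d3 and Zbtb16) beside 9.61% of all genes, and 2 of 8 lower (Fkbp5 and Sgk1) beside 6.31%. PD03 against control called 1 of 8 higher (Tsc22d3) beside 4.9%, and 2 of 8 lower (Hsd11b1 and Sgk1) beside 4.07%. Zbtb16 passed the filter only through groups where it was higher than in thrombin, so its calls in these counts are tied to the filter. A mean count of at least 50 removed Zbtb16 from both comparisons with thrombin libraries in which it was called, and left 1 member called in thrombin against control. With no fold threshold, 6, 6 and 7 of the 8 members had an adjusted p under 0.05 in these comparisons in turn, beside 28.7%, 49.8% and 39.9% of all genes. The median log2 fold change of the members was -0.16, -0.034 and -0.45, against -0.0060, 0.011 and -0.0040 over all genes. Each pair of comparisons shares the libraries of 1 group, so their values are given side by side only.

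**Figure D1:**
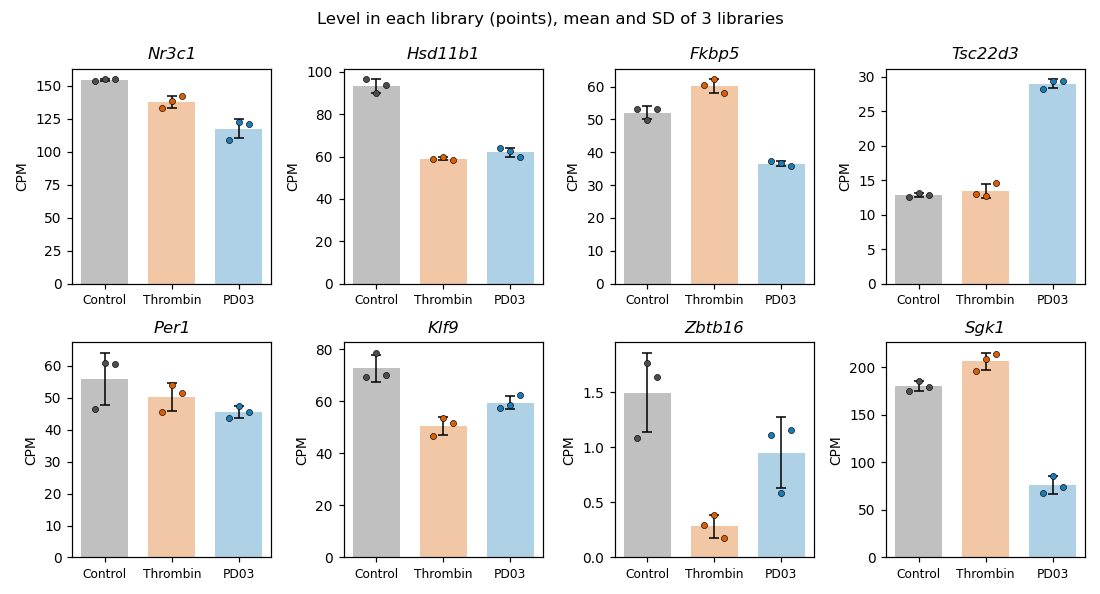
Level of each of the 8 members in CPM (vertical axis) in the control, thrombin and PD03 groups. Points are the 3 libraries of a group, bars their mean and error bars the SD. Tsc22d3 stood at 28.2 to 29.5 CPM in PD03 and at 12.6 to 14.6 in the other groups, while Sgk1 stood at 68.1 to 86.1 in PD03 and at 175 to 213 in the others.

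**Figure D2:**
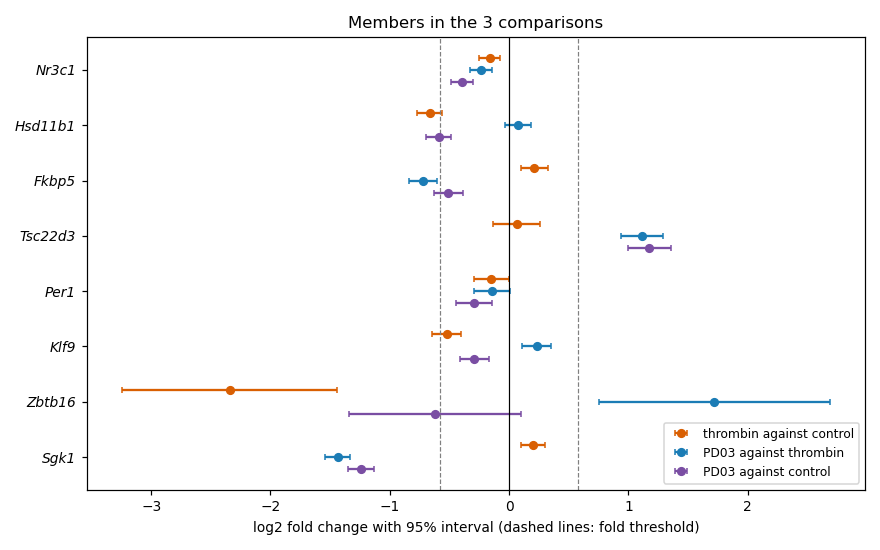
Log2 fold change (horizontal axis) of each member in the 3 comparisons, with 95% intervals from the edgeR fit of 9 libraries; dashed lines mark the fold threshold of 0.58. Zbtb16, the member with the fewest counts, has the widest intervals, and Hsd11b1 for PD03 against control lies at the threshold.

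Nr3c1 (ENSRNOG00000014096) encodes the receptor itself. Its level was 154, 155 and 155 CPM in the 3 control libraries, 133, 139 and 142 in the thrombin libraries and 109, 123 and 121 in the PD03 libraries. The 3 groups did not overlap, with control highest and PD03 lowest. The log2 fold change was -0.16 ± 0.045 (SE, adjusted p = 0.00414) for thrombin against control, -0.23 ± 0.046 (adjusted p = 3.73e-05) for PD03 against thrombin and -0.40 ± 0.046 (adjusted p = 1.38e-09) for PD03 against control. In percent, the PD03 level was 75.9% of control, with an interval from 71.2% to 80.9%, and none of the 3 differences reached the fold threshold. In these bulk libraries, fewer cells that express a gene and less RNA per cell cannot be told apart.

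Hsd11b1 (ENSRNOG00000005861) encodes 11β-hydroxysteroid dehydrogenase type 1, which turns inactive cortisone or 11-dehydrocorticosterone into active hormone and so raises glucocorticoid inside the cell. It was measured at 96.4, 89.8 and 93.9 CPM in control, 58.6, 59.8 and 58.3 in thrombin, and 64.0, 62.5 and 59.7 in PD03. The control libraries stood above all others, and thrombin and PD03 overlapped. Thrombin lowered it to 63.1% of control (log2 fold change -0.66 ± 0.052, adjusted p = 4.76e-14). PD03 did not differ detectably from thrombin (0.076 ± 0.054, interval -0.032 to 0.18, adjusted p = 0.247), and by library totals or FPKM the sign turned, to -0.023 by totals. PD03 against control gave -0.59 ± 0.052 (adjusted p = 1.24e-12), just past the fold threshold. That call was lost without control replicate 1 (-0.56) and without PD03 replicate 3 (-0.56), and neither comparison with control passed a test of the change against the fold threshold itself (adjusted p = 0.323 for thrombin and 1 for PD03).

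Markers of other cell types also differed between groups, and their part in the members' values was not tested. The summed level of the 6 adipocyte genes was 202 to 213 CPM in control, 98.3 to 104 in thrombin and 156 to 166 in PD03, almost all of it Lpl, and Adipoq was at 0 in all PD03 libraries. Lpl, a lipase, and Pparg, the adipocyte regulator, were both called lower in thrombin than in control (log2 fold change -1.06 and -1.88) and higher in PD03 than in thrombin (0.67 and 1.77), Pparg at a low level of 1.22, 0.331 and 1.14 CPM on average. Pparg had 2 to 8 counts in the thrombin libraries and passed the filter only through the other groups, where it was higher. Summed chondrocyte markers were at 90.6 to 100.5 CPM in control, 65.0 to 70.6 in thrombin and 81.2 to 87.5 in PD03. Most of this sum was Col2a1 (84.4, 49.2 and 56.4 CPM on average), called lower than control in both groups. Sox9 and Acan went the other way and were called higher in thrombin than in control (0.89 and 1.29). In PD03 against control, Sox9, Acan and Comp were called higher (1.08, 1.02 and 1.66), Acan at a low level. Comp was also called higher in PD03 than in thrombin (2.16). Summed endothelial markers were at 6.69 to 7.77, 6.31 to 8.51 and 11.1 to 12.6 CPM in the same order of groups. The 2 tested ones, Kdr and Tek, were called higher in PD03 than in thrombin (1.42 and 0.62), 1 of them with library totals. Kdr, at a low level of 0.563, 0.692 and 1.88 CPM on average, was also called higher in PD03 than in control (1.72). Summed skeletal muscle markers, mostly Des, lay between 5.87 and 9.22 CPM and myeloid markers between 1.58 and 3.11 in every library. The myeloid gene Csf1r averaged 0.440, 0.746 and 1.24 CPM in control, thrombin and PD03 and was called higher in PD03 than in control. It had 5 to 9 counts in control and passed the filter only through the other groups, where it was higher. Csf1r was the only 1 of the 6 myeloid genes tested. Among the others, all at low levels, Cd68, Adgre1 and Itgam averaged lower in PD03 than in control, and Ptprc and Lyz2 higher. The muscle gene Acta1 averaged 0.277, 0.518 and 1.19 CPM and was called higher in PD03 than in both other groups, while Des was not called. Acta1 had 2 to 6 counts in control, 9 in thrombin and 15 to 25 in PD03. It passed the filter's minimum count of 10 only through PD03, the group where it was high, so its calls are tied to the filter.

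Fkbp5 (ENSRNOG00000022523) encodes a co-chaperone that joins the receptor complex, lowers its affinity for hormone and is among the most used markers of glucocorticoid response. It was at 53.1, 49.7 and 53.2 CPM in control, 60.4, 62.3 and 58.1 in thrombin, and 37.2, 36.7 and 35.8 in PD03. The 3 groups were separate, with thrombin highest and PD03 lowest. PD03 lowered it to 60.7% of the thrombin level (log2 fold change -0.72 ± 0.059, adjusted p = 1.08e-13). Thrombin against control gave 0.21 ± 0.057 (adjusted p = 0.00382) and PD03 against control -0.51 ± 0.060 (adjusted p = 3.30e-09), both under the fold threshold. With library totals the last value was -0.63 and passed it.

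Tsc22d3 (ENSRNOG00000056135) encodes GILZ, a leucine zipper protein through which glucocorticoids damp AP-1 and NF-κB. Its level was 12.6, 13.2 and 12.8 CPM in control, 13.0, 12.7 and 14.6 in thrombin, and 28.2, 29.5 and 29.4 in PD03. Control and thrombin overlapped and every PD03 library stood above both. PD03 raised it 2.16-fold over thrombin (log2 fold change 1.11 ± 0.087, adjusted p = 2.59e-14) and 2.26-fold over control (1.17 ± 0.089, adjusted p = 1.38e-14). Thrombin against control gave 0.062 ± 0.096, with an interval from -0.13 to 0.26 (adjusted p = 0.691), and -0.000192 without thrombin replicate 3. Fkbp5 and Tsc22d3 thus went in opposite directions between PD03 and thrombin, although both are standard markers of the same receptor. RefSeq gives Tsc22d3 3 promoter entries, and the counts join its transcripts in 1 gene value.

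Per1 (ENSRNOG00000007387) encodes a repressor of the circadian clock that glucocorticoids induce quickly. It was at 46.6, 60.9 and 60.4 CPM in control, 45.4, 54.0 and 51.4 in thrombin, and 43.8, 47.3 and 45.7 in PD03. The groups overlapped in all 3 comparisons, with control replicate 1 close to the PD03 libraries. No comparison reached the fold threshold: the log2 fold changes were -0.15 ± 0.073 (adjusted p = 0.126), -0.14 ± 0.074 (adjusted p = 0.107) and -0.29 ± 0.074 (adjusted p = 0.00127) in the same order of comparisons as above. Without the 3 replicate 1 libraries the first 2 were -0.20 (adjusted p = 0.00914) and -0.18 (adjusted p = 0.0164), still under the fold threshold. Without control replicate 1 alone the first was -0.27 (adjusted p = 0.00266), and over all single libraries left out it ranged from -0.27 to -0.079.

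Klf9 (ENSRNOG00000014215) encodes a zinc finger repressor that the receptor induces and that in turn limits some of its other targets. It was at 69.3, 78.7 and 70.2 CPM in control, 46.8, 53.5 and 51.5 in thrombin, and 57.4, 58.7 and 62.3 in PD03. The 3 groups were separate, with control highest and thrombin lowest. Thrombin against control gave a log2 fold change of -0.52 ± 0.060 (adjusted p = 2.20e-09), under the fold threshold. PD03 against thrombin gave 0.23 ± 0.061 (adjusted p = 0.00155, but 0.0649 with library totals), and PD03 against control gave -0.29 ± 0.059 (adjusted p = 9.27e-05).

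Zbtb16 (ENSRNOG00000029980) encodes PLZF, a zinc finger transcription factor that dexamethasone induces strongly in bone-forming cells and that promotes osteogenic differentiation. It was a rare transcript here, with 20, 28 and 26 counts in control, 5, 7 and 3 in thrombin, and 21, 9 and 19 in PD03, or 1.09, 1.77 and 1.64, then 0.297, 0.384 and 0.175, then 1.11, 0.583 and 1.16 CPM. All thrombin libraries were below all control and PD03 libraries, and control and PD03 overlapped. Thrombin lowered it by a log2 fold change of -2.34 ± 0.45 (interval -3.24 to -1.44, adjusted p = 5.38e-05), and it was higher by 1.72 ± 0.48 in PD03 than in thrombin (interval 0.75 to 2.69, adjusted p = 0.00253). PD03 against control gave -0.62 ± 0.36 (interval -1.34 to 0.099, adjusted p = 0.169). On log2(FPKM + 1), which compresses low values, the first 2 were -0.56 and 0.30 and were not called. Every thrombin count of Zbtb16 was below the filter's minimum count of 10, so the gene entered the tests through libraries of the other groups, where it was higher. Fitted with only the thrombin and PD03 libraries, Zbtb16 did not pass the filter on low counts.

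Sgk1 (ENSRNOG00000011815) encodes a kinase of the AGC family that serum and glucocorticoids induce and that controls ion transport and cell survival. It was at 175, 185 and 179 CPM in control, 196, 209 and 213 in thrombin, and 68.1, 86.1 and 74.5 in PD03. The 3 groups were separate, with PD03 far below both others. PD03 lowered it to 36.9% of thrombin (interval 34.3% to 39.8%, log2 fold change -1.44 ± 0.053, adjusted p = 2.93e-25) and to 42.3% of control (-1.24 ± 0.054, adjusted p = 1.95e-22). Thrombin against control gave 0.20 ± 0.050 (adjusted p = 0.00193), under the fold threshold.

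Levels of different members can be compared only per gene length, for which the deposited FPKM values (fragments scaled to gene length and library size) were used. In control, mean FPKM ran from Sgk1 (43.9) through Klf9 (27.5), Hsd11b1 (21.4), Per1 (14.3), Fkbp5 (12.4), Nr3c1 (9.45) and Tsc22d3 (4.59) to Zbtb16 (0.662), and only Per1 and Fkbp5 overlapped between neighbours. In thrombin, Sgk1 (49.7) and Klf9 (18.9) again led, followed by Fkbp5 (14.2), then Hsd11b1 (13.4) and Per1 (12.7), whose libraries overlapped. In PD03, Klf9 (20.8) stood above Sgk1 (17.2), and Tsc22d3 (9.57) above both Fkbp5 (8.05) and Nr3c1 (6.63), with no overlap between neighbours. FPKM were scaled by library totals.

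**Figure D3:**
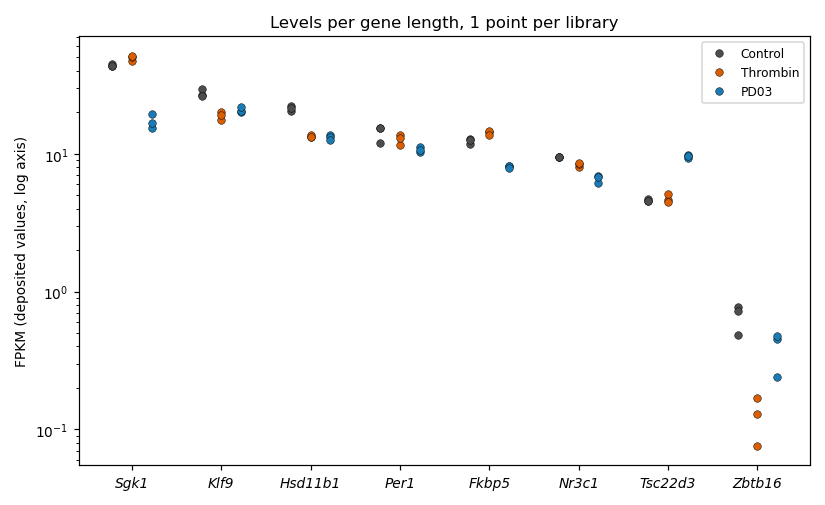
Deposited FPKM (vertical log axis) of the 8 members, ordered by their mean in control, with 1 point per library coloured by group. Sgk1 leads in control and thrombin, Klf9 in PD03, and Zbtb16 is lowest in all 3.

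The other genes of the pathway were described by lists of known genes, with no test of a list. Among all genes, thrombin against control called 2.62% higher and 5.44% lower, and PD03 against thrombin 9.61% and 6.31%. PD03 against control called 4.9% and 4.07%, and the list counts here and further below are to be read beside these shares. Of 14 genes for receptor chaperones and co-chaperones, 0 were called in any comparison. For PD03 against thrombin 13 had an adjusted p under 0.05, 12 of them lower, beside 49.8% of all genes in either direction (median log2 fold change -0.30, against 0.011 over all genes). Hsp90ab1, the constitutive cytosolic Hsp90 that holds the receptor ready for hormone, was at 820 ± 7.6, 890 ± 7.4 and 623 ± 10 CPM in control, thrombin and PD03 (SD, n = 3), a log2 fold change of -0.51 ± 0.032 for PD03 against thrombin (adjusted p = 1.32e-17). Fkbp4, the co-chaperone that opposes Fkbp5, gave -0.47 ± 0.055 (adjusted p = 1.77e-09), Ptges3, the p23 co-chaperone, -0.39 ± 0.042 (adjusted p = 1.02e-10), and Hsp90aa1, the inducible Hsp90, -0.17 ± 0.045 (adjusted p = 0.00133). Dnaja1, an Hsp40 co-chaperone, lay the other way at 0.18 ± 0.041 (adjusted p = 0.000247). With library totals 2 of the 14 were called lower. Of 13 receptor co-regulators, 0 were called in any comparison. The outermost values for PD03 against thrombin were 0.49 for Tgfb1i1, a receptor coactivator, and -0.40 for Med1, a Mediator subunit.

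Of 16 genes that convert, bind or export steroids, 14 had a row and 8 were tested. Akr1c14, a 3α-hydroxysteroid dehydrogenase, fell in thrombin from 18.6 ± 0.74 to 2.78 ± 0.21 CPM (log2 fold change -2.74, adjusted p = 5.85e-21) and stood at 10.6 ± 0.78 in PD03 (1.94 against thrombin, adjusted p = 2.45e-15). Nr3c2, the mineralocorticoid receptor, which also binds glucocorticoids, went from 4.17 to 2.32 to 4.87 CPM and was called lower in thrombin (-0.86, adjusted p = 0.00243) and higher in PD03 than in thrombin (1.09, adjusted p = 4.63e-05). H6pd, which supplies the cofactor of the Hsd11b1 enzyme, differed by -0.29 (adjusted p = 9.26e-05) and 0.57 (adjusted p = 1.95e-11) in the same comparisons, both under the fold threshold. Abcb1b, a P-glycoprotein gene that exports steroids such as dexamethasone, fell in PD03 to 50.6 ± 4.5 CPM, against 78.5 ± 5.5 in thrombin (-0.64, adjusted p = 1.65e-11) and 90.5 ± 7.0 in control (-0.84, adjusted p = 7.63e-15). Its neighbour in the family, Abcb1a, was called higher in thrombin at a low level (0.693 to 1.44 CPM, 1.03, adjusted p = 0.0495), a call that library totals did not give. Hsd11b2, which inactivates glucocorticoids, was below the filter, at 0.210 to 0.325 CPM on average.

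Of 48 other genes known to be induced by glucocorticoids, 45 were tested. Thrombin against control called 2 higher and 7 lower (median log2 fold change -0.18), PD03 against thrombin 6 higher and 8 lower (0.044, but -0.055 with library totals), and PD03 against control 6 higher and 8 lower (-0.090). The metallothionein Mt1, which binds zinc and copper, fell in each step, from 35.7 ± 0.45 to 3.39 ± 0.29 to 1.01 ± 0.035 CPM (-3.39 for thrombin against control, adjusted p = 1.86e-26, and -1.74 for PD03 against thrombin, adjusted p = 1.60e-09). Mt2A, its paralog, named here after its values were seen, went from 179 ± 11 to 44.8 ± 2.3 to 13.9 ± 2.3 CPM. Cdkn1c, the cell cycle inhibitor p57, fell in thrombin (58.3 ± 0.92 to 13.3 ± 1.3 CPM, -2.13, adjusted p = 1.08e-24) and rose again in PD03 to 85.6 ± 9.8 (2.69 against thrombin, adjusted p = 2.86e-29). Crispld2 rose in thrombin (1.24, adjusted p = 2.45e-18), with 0.044 for PD03 against thrombin (adjusted p = 0.595). Rhob, a small GTPase, was at 218 ± 4.7 CPM in control and 218 ± 8.4 in thrombin and rose in PD03 to 544 ± 13 (1.32 against thrombin, adjusted p = 1.86e-29). Ddit4, an inhibitor of mTORC1, followed the order of Fkbp5 (24.0 ± 1.3, 36.7 ± 4.8 and 16.8 ± 1.7 CPM), rising by 0.61 in thrombin (adjusted p = 1.75e-07) and falling by 1.12 on the log2 scale in PD03 against thrombin (adjusted p = 3.01e-14). Cebpd, a C/EBP factor, differed by -0.33 (adjusted p = 0.000117) and 0.38 (adjusted p = 7.87e-06), under the fold threshold.

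Of 22 genes known to be repressed by glucocorticoids, 18 were tested. Thrombin against control called 7 higher and 4 lower (median 0.53), PD03 against thrombin 3 higher and 12 lower (-0.93), and PD03 against control 0 higher and 7 lower (-0.41). Part of this list, among them Il1b, was picked by the study from these samples, so its direction is not independent evidence. Il1b, the interleukin-1β gene, rose in thrombin from 0.657 ± 0.26 to 1.96 ± 0.54 CPM (1.57, adjusted p = 0.00117) and fell in PD03 to 0.814 ± 0.40 (-1.30 against thrombin, adjusted p = 0.00278). Vcam1, an adhesion molecule, fell in thrombin (-1.30, adjusted p = 4.68e-14) and rose in PD03 against thrombin (0.80, adjusted p = 1.99e-08). Tnfrsf11b, which encodes osteoprotegerin, the decoy receptor that blocks osteoclast formation, fell from 120 ± 6.0 to 57.3 ± 1.4 CPM in thrombin and rose to 170 ± 5.3 in PD03 (1.57 against thrombin, adjusted p = 3.54e-28). Csf2, which encodes GM-CSF, averaged 1.99 ± 0.46 CPM in control and 2.94 ± 0.43 in thrombin and was at 0 counts in the 3 PD03 libraries, at least 49.7-fold lower than thrombin when PD03 is set to 3 counts over its libraries. With Csf2 at that bound the medians were the same.

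**Figure D4:**
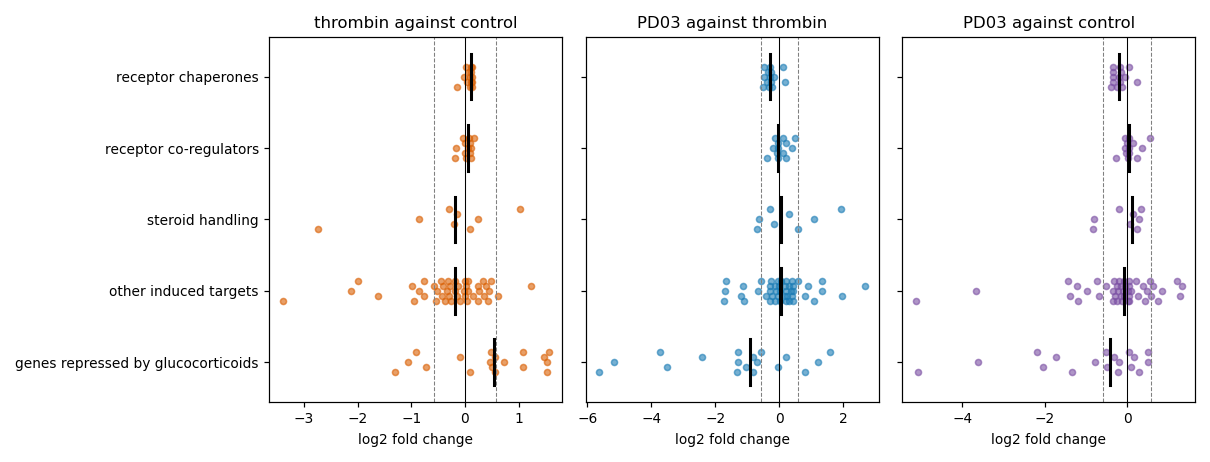
Log2 fold change (horizontal axis) of every tested gene in 5 lists, in the 3 comparisons. Points are genes, offset vertically for visibility, black bars list medians and dashed lines the fold threshold of 0.58; Csf2, at 0 counts in PD03, is plotted at its bound. The chaperones lie within the threshold in all 3 panels, while repressed genes pass it on both sides in the first 2 comparisons and only on the lower side for PD03 against control.

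The genes whose log2 CPM ran most like each member over the 9 libraries were named by Pearson's r among the 10089 genes that averaged 5 CPM or more, as a description only, since the libraries share 3 groups. Nr3c1 ran with Il1r1 (0.988) and Tnfaip2 (0.985), Hsd11b1 with Csf2rb (0.995) and Ptx3 (0.993), and Fkbp5 with Nudt4 (0.997) and Ube2t (0.994). Tsc22d3 ran with Fmod and Kdelr3 (both 0.998), Per1 with Srfbp1 (0.955) and Nectin1 (0.947), and Klf9 with Gas7 (0.986) and Ly6e (0.967). Zbtb16 ran with Parva (0.978) and Pnpla7 (0.969), and Sgk1 with Nap1l1 (0.999) and Serbp1 (0.995).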

How the data were processed

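The authors isolated the cells, sequenced messenger RNA and deposited 1 table with a raw count and an FPKM value per gene and library. Per the paper, reads were trimmed with fastp, aligned with HISAT2 to Rnor_6.0, counted with featureCounts and tested with DESeq2; the submitters' processing notes name HISAT2, HTSeq 0.13.5 and mRatBN7.2 instead, and the conflict was not resolved. The sources used here give neither annotation release nor strandedness, so reads of overlapping antisense genes cannot be told apart. The deposited counts were used for all tests and the deposited FPKM values for levels between genes and as an alternative.

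Genes were filtered with edgeR's filterByExpr (minimum count 10), scaled by TMM and fitted in 1 quasi-likelihood model of the 9 libraries (edgeR 4.0.16, R 4.3.3), with Benjamini-Hochberg adjustment over 13256 genes. CPM are TMM-scaled. Intervals cover 95%. The biological coefficient of variation was 4.28%. Alternatives used DESeq2 1.42.0, limma 3.58.1, other scalings, filters and thresholds, FPKM with 1 or 0.1 added, a replicate block and each library left out. Pairs of replicates had a chi-square of 1.82 to 4.03 per degree of freedom, above counting noise, highest for pairs with replicate 1. All libraries were kept, and a fit without the 3 replicate 1 libraries was added after seeing the data. P-values measure only the spread between these samples. Plots used matplotlib 3.10.9 under Python 3.11.15.

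The members and lists were chosen with earlier results of these data known. Genes were named from the lists if they had the largest rise or fall in a comparison, or were Fkbp4, Hsp90aa1, Hsp90ab1, Ptges3, Nr3c2, H6pd, Hsd11b2, Per2, Dusp6, Sgk3, Cebpd or Ddit4, beside the 2 genes most like each member. Markers covered osteoblasts, chondrocytes, adipocytes, myeloid, endothelial and muscle cells. Dusp1 had no row under that symbol.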

Additional observations from a re-analysis of the deposited data

How the results depend on the processing

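Of 548 values of single members under alternatives, 523 kept their direction and their side of the threshold, 9 lost and 12 gained the call, and 4 turned sign. The turned values were Hsd11b1 for PD03 against thrombin, at -0.023 by library totals, -0.022 by log2(FPKM + 1) and -0.024 by log2(FPKM + 0.1), and Tsc22d3 for thrombin against control, which ranged from -0.000192 to 0.10 with single libraries left out. With no fold threshold, 6 members instead of 2 were called in thrombin against control and 7 instead of 3 in PD03 against control, and 3808, 6608 and 5289 genes in all instead of 1068, 2110 and 1189. A threshold of 1 called 505, 935 and 519 genes and 1 member in thrombin against control, and testing against the fold threshold 460, 1051 and 499 genes and 1 member there. On log2(FPKM + 1), 543, 1254 and 676 genes were called, and 1 member in thrombin against control. A mean count of at least 50 left 1 member called in that comparison, because Zbtb16 was filtered out. For PD03 against thrombin, 3 members instead of 4 were called with a mean count of at least 50, with log2(FPKM + 1) and with only the 2 groups compared, each time without Zbtb16, and 3 with a threshold of 1, without Fkbp5. For PD03 against control, library totals and log2(FPKM + 0.1) called 4 members, and a threshold of 1 and the test against the fold threshold 2. Deviations of same-numbered libraries from their group mean correlated at -0.046 to 0.052, and those of libraries with different numbers at -0.056 to 0.055. Genes of low count weighed as much as others here, so whether same-numbered libraries were prepared together cannot be told from these values. The fit with replicate block called 1067 and 1187 genes in the comparisons with control and moved no count of members. Without the 3 replicate 1 libraries, 1038, 2070 and 1198 genes and 2, 4 and 3 members were called. Leaving out 1 library gave 2 or 3 called members for PD03 against control. Depth limits Zbtb16, Csf2 and the late osteoblast markers, and 3 libraries per group limit all values.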

Other observations

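Relatives and partners of the members were described in the same way. Of the 3 other Tsc22 genes, 0 were called in any comparison, and Tsc22d1 lay at 262 ± 2.8, 379 ± 2.4 and 353 ± 11 CPM in control, thrombin and PD03 (log2 fold change 0.53 for thrombin against control, adjusted p = 4.66e-16), while Tsc22d4 gave -0.037, 0.013 and -0.023 in the 3 comparisons. Of 13 other Fkbp genes, 1 was called for PD03 against thrombin, Fkbp7, an endoplasmic reticulum prolyl isomerase (0.73, adjusted p = 2.29e-14). Of 8 other kinases and substrates around Sgk1, 0 were called. Sgk3 was at 1.28, 0.874 and 1.39 CPM, and Ndrg1, a substrate of Sgk1, gave -0.55 in thrombin (adjusted p = 8.78e-11), 0.33 for PD03 against thrombin (adjusted p = 3.29e-06) and -0.21 for PD03 against control (adjusted p = 0.00126). Of 12 other Klf genes, 5 were called higher in PD03 than in thrombin (4 higher and 1 lower with library totals) and 3 lower in thrombin than in control. With an adjusted p under 0.05 and no fold threshold, PD03 against thrombin had 9 higher and 3 lower, beside 49.8% of all genes in either direction. Thrombin against control had 1 higher and 5 lower in that way, beside 28.7% of all genes. Klf2 rose in PD03 from 6.76 ± 0.80 to 45.1 ± 2.8 CPM (2.74, adjusted p = 1.32e-23), and Klf5 fell in thrombin from 32.5 ± 2.4 to 15.8 ± 2.1 CPM (-1.04, adjusted p = 5.28e-12).

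Among 18 other clock genes, thrombin called Bhlhe40 (0.71, adjusted p = 2.85e-11) and Bhlhe41 (1.24, adjusted p = 5.76e-10) higher, both repressors of the clock. PD03 against thrombin called 0 higher and 2 lower, Bhlhe40 (-1.14, adjusted p = 1.80e-17) and Nr1d1, another clock repressor (-0.60, adjusted p = 7.59e-05), and PD03 against control called Bhlhe41 higher (1.36, adjusted p = 3.33e-11) and Ciart lower (-0.81, adjusted p = 0.0356). Per2 was at 20.0 ± 1.6, 16.6 ± 1.4 and 16.7 ± 2.0 CPM. Of 7 tested MAPK phosphatases, PD03 against thrombin called 3 lower and 1 higher. Dusp6, which acts on ERK, fell in PD03 from 23.1 ± 3.1 to 4.32 ± 1.1 CPM (-2.40 against thrombin, adjusted p = 4.07e-20), Dusp5 fell by 1.03 (adjusted p = 1.79e-06) and Dusp10 by 0.67 (adjusted p = 3.33e-05) on the log2 scale, and Dusp8 rose from 2.31 ± 0.21 to 7.89 ± 1.3 CPM (1.77, adjusted p = 1.49e-10). In thrombin against control 1 was called, Dusp4, which rose (0.94, adjusted p = 2.08e-07). Nr1d1, Dusp5 and Dusp10 were named after their values were seen.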
